A study of Homo sapiens with 7 samples.

Results

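In OCI-Ly7 cells, 2177 (1.95%) of 111561 regions bound by any of 6 factors carried a peak of OCA-B and a peak of OCT2 and none of EP300, CREBBP, MED1 or OCT1. Chromatin immunoprecipitation with sequencing (ChIP-seq) had been done with 1 library per antibody in OCI-Ly7 grown in suspension, an established human line of diffuse large B-cell lymphoma, and an input library (genomic DNA without antibody) served all peak calls as control. The peaks of the 6 deposited lists on chromosomes 1 to 22 and X were joined wherever at least 1 bp was shared, and a region was kept by which lists it held. The regions were thus chosen by peak presence and absence in these same lists, so the values of both factors describe regions as selected. With 1 library per factor and no replicate, no difference was tested.

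OCA-B, the product of POU2AF1, is a B-lymphoid coactivator without a strong DNA contact of its own. It clasps the POU domain of OCT2 (POU2F2) or OCT1 (POU2F1) on the octamer element and is needed for germinal centre formation in mice. Enhancers and promoters in active use usually also hold Mediator, of which MED1 is a subunit, and the paralogous acetyltransferases CREBBP and EP300. Regions with OCA-B and OCT2 alone are therefore places where the B cell-restricted pair was called without the general coactivators or the ubiquitous octamer factor.

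The ChIP libraries kept 12357450 (CREBBP) to 27885791 (EP300) tags after filtering, with 19965282 for OCA-B and 22142497 for OCT2. Absence of a factor means that no peak passed the authors' q threshold of 0.05 at that depth. The B cell marker genes MS4A1, CD79A, CD79B, PAX5 and CD22 had OCA-B and OCT2 peaks within 1 kb of a gene end, as had 3 of 6 T cell markers (not CD3D, CD3G or CD4) and none of 4 myeloid markers (CD14, LYZ, MPO and CSF1R).

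The sequences shown first are from promoters where a region with OCA-B and OCT2 alone covered an octamer. Among RefSeq windows of GRCh38.p14 that reach from 250 bases before to 50 bases after a gene start, 75 windows of 68 genes were overlapped by 63 such regions. The octamer ATGCAAAT was searched on both strands, where its complement reads ATTTGCAT. It lay in 5 of the 75 windows (6.67%, exact 95% interval 2.20 to 14.9), against 1.77% of all 34961 windows. The share depended on the peak threshold and rests on few windows: it was 1.96% of 102 windows with all 6 lists at −log10 q of at least 5, 2.78% of 36 with only OCA-B and OCT2 held to that, and 18.9% of 37 with all lists shortened to the length of the shortest. The 5 windows belong to 4 regions, because LOC102723575 has 2 overlapping windows. In the stretches below, read 5′ to 3′ on the strand of the gene and ending before its start, capitals mark the octamer.
C1R: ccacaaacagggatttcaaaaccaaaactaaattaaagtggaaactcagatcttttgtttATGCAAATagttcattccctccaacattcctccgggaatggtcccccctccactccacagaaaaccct
LINC02197: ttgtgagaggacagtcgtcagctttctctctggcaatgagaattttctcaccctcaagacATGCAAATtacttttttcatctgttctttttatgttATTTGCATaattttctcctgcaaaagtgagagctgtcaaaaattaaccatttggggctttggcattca
LOC102723575: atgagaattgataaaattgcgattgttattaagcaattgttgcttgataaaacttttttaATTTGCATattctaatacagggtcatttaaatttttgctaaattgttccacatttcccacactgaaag
PUM2: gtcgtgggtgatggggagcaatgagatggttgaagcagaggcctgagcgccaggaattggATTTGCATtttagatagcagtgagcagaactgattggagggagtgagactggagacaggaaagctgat

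The C1R stretch (chr12:7092482-7092609, minus strand) belongs to the gene of a complement protease, and its octamer begins 104 bases before the start. Its middle lay 5.5 bp from the OCA-B summit and 20.5 bp from the OCT2 summit of a region with a fold over control of 7.55 for OCA-B and 9.58 for OCT2. The nearest coactivator peak was 15931 bp away. At LINC02197, a long non-coding RNA gene (chr5:71446817-71446980, minus strand), octamers in opposite orientation begin 164 and 128 bases before the start. The first lay 4.5 bp from the OCA-B summit and the second 21.5 bp from the OCT2 summit, in a region with folds of 4.30 for OCA-B and 7.31 for OCT2 and no coactivator peak within 156098 bp. At LOC102723575 (chr11:59537169-59537296, plus strand) the octamer was 45.5 bp from the OCT2 summit and 244.5 bp from the OCA-B summit, and the folds were 7.08 for OCA-B and 5.00 for OCT2. PUM2 (chr2:20352276-20352403, minus strand), which encodes an RNA-binding repressor of translation, had folds of 3.42 for OCA-B and 5.94 for OCT2. Its octamer was 10.5 bp from the OCT2 summit and 55.5 bp from the OCA-B summit, and a coactivator peak lay 242 bp away. In these 4 regions every octamer lay inside the region, and at C1R and LINC02197 each summit was within 21.5 bp of one. These genes were picked because their windows hold an octamer, and only C1R is also among the promoters named by strength.

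TNFRSF13B encodes TACI, a receptor of B cells for the survival factors BAFF and APRIL. Its promoter region had folds of 7.35 for OCA-B and 5.92 for OCT2, and its window had no exact octamer. A match with 1 substitution, C4T when counted from 1 at the 5′ end of ATGCAAAT, lay 7.5 bp from the OCT2 summit and 35.5 bp from the OCA-B summit and is in capitals here, read as its complement on the gene's strand (chr17:16972119-16972223, minus strand).
TNFRSF13B: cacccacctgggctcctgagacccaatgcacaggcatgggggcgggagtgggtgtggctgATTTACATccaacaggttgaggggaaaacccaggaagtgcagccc

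A coactivator peak lay 277 bp from the TNFRSF13B region, so the rule kept it by a short distance. Promoter regions were ranked by the smaller of both folds outside chromosome 8, which the naming rule left out. The strongest were at TMEM187 (7.64 for OCA-B, 10.96 for OCT2), C1R, TMEM120B (7.03 for OCA-B, 7.22 for OCT2) and RBPJ, the DNA-binding effector of Notch signalling (10.8 for OCA-B, 6.85 for OCT2). RBPJ was the only one of these 4 whose window held no octamer even with 1 mismatch. A coactivator peak lay 115 bp from the TMEM187 region, 173 bp from that of TMEM120B and 451 bp from that of RBPJ. The rule thus kept these by short distances too, and at TMEM187 an OCT1 peak was 362 bp away. The RBPJ region lay inside the gene, 115.5 kb from its nearest end. At the others among the 12 promoters named by rule, ALMS1, SRPK2, FHIP2A, TNFRSF13B, ITGA6-AS1, BEAN1-AS1, LOC105378052 and LOC124907904 (which shares its window with the kinetochore gene SPC25), no window held the exact octamer.

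With the peaks as deposited, the share of windows with the exact octamer was also counted for other kinds of region. It was 6.67% for OCA-B and OCT2 alone, 1.55% of 1486 windows where a coactivator but no OCT1 had joined them, 9.19% of 185 where only OCT1 had joined, 11.3% of 142 under OCT2 alone and 0.301% of 332 under OCA-B alone. The exact 95% intervals were 2.20 to 14.9, 0.984 to 2.31, 5.44 to 14.3, 6.58 to 17.7 and 0.00763 to 1.67 in the same order. That of the pair alone overlapped all but the last. A window counted where a region overlapped it, so an octamer need not lie under the region, and the kinds differ in width. With 1 mismatch allowed the shares were 28.0%, 17.3%, 21.1%, 42.3% and 9.94% in the same order, and 17.0% of all windows. For the ETS core CCGGAAG they were 18.7%, 16.4%, 23.2%, 7.04% and 18.1%, against 10.3% of all windows. The GC box GGGCGG was in 42 of the 75 windows of the pair alone, 43.2%, 79.5%, 20.4% and 69.0% of the others, against 45.0% of all. The CCAAT box was in 30 of the 75, against 34.6% of all, and the palindromic NRF1 motif in 1 of the 75 windows. The 142 windows under OCT2 alone thus had the highest share of octamers and the lowest share of GC boxes of these kinds. Their interval for the exact octamer overlapped those of the pair alone and of the regions with OCT1. Sequence under distal regions was not analysed here.

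Regions with OCA-B and OCT2 alone were narrow. In 2164 of the 2177 there was 1 peak of each factor, and the other 13 held at most 2 peaks of a factor. The rule itself favours this, since no peak of another factor can join more peaks into the region. The same count was not taken for other kinds of region. The median width was 282 bp (quartiles 232 to 352), against 643 bp where a coactivator but no OCT1 was also present, a class of 19853 regions, and 186 and 194 bp for regions of OCA-B only and OCT2 only. Since a region is the union of its peaks, more factors by themselves make it wider. The single OCA-B peak was also narrower, with a median of 196 bp against 291 bp in the class with coactivators, and so was the OCT2 peak, with 238 against 360 bp. The OCT2 peak was the wider in 1474 (67.7%).

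The summits of both factors lay close together, which the rule itself favours. In the 2164 regions with 1 peak of each factor, both peaks must overlap to form a region. The median distance was 35 bp (quartiles 16 to 64) in regions of OCA-B and OCT2 alone and 37 bp (16 to 81) with a coactivator. In 1434 (65.9%) the summits were within 50 bp, against 60.6% with a coactivator. The peaks of the pair alone were also narrower, and with a coactivator both peaks can be joined through that of another factor. The part of these in the difference was not tested. In the weakest quintile by OCA-B fold the medians were 38 and 50 bp, and in the fourth 23 and 26 bp, while in the strongest, with 25 regions of the pair alone, they were 28 and 21 bp.

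Both factors had lower median folds here than in the pooled class with a coactivator and no OCT1, which did not hold for OCT2 in each combination of coactivators. The median OCA-B fold over control, as the authors' peak caller gave it, was 4.62 (quartiles 3.85 to 5.49) in regions of the pair alone and 5.49 (4.42 to 7.16) with a coactivator. For OCT2 it was 5.77 (4.46 to 7.96) against 7.14 (5.07 to 10.6). Split by coactivators, the median OCT2 fold was 5.05 with CREBBP only, 5.07 with MED1 only, 5.20 with MED1 and CREBBP and 5.57 with MED1 and EP300, all below the 5.77 of the pair alone. It was 5.86 with EP300 only, 6.64 with CREBBP and EP300 and 8.10 in the 11896 regions with all 3. For OCA-B these 7 medians ran from 4.64 with CREBBP only to 5.98 with all 3, against 4.62 for the pair alone. OCA-B only regions had a median OCA-B fold of 4.41 and OCT2 only regions an OCT2 fold of 4.78. Ranked by fold within its own list, the median region of the pair stood at percentile 31.6 for OCA-B and 49.2 for OCT2. Both peaks were at or below the median of their lists in 935 regions (42.9%) and both above it in 311 (14.3%). In fragments at the summit, the medians were 13 for OCA-B and 19 for OCT2, against 20 and 28 with a coactivator.

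**Figure D1:**
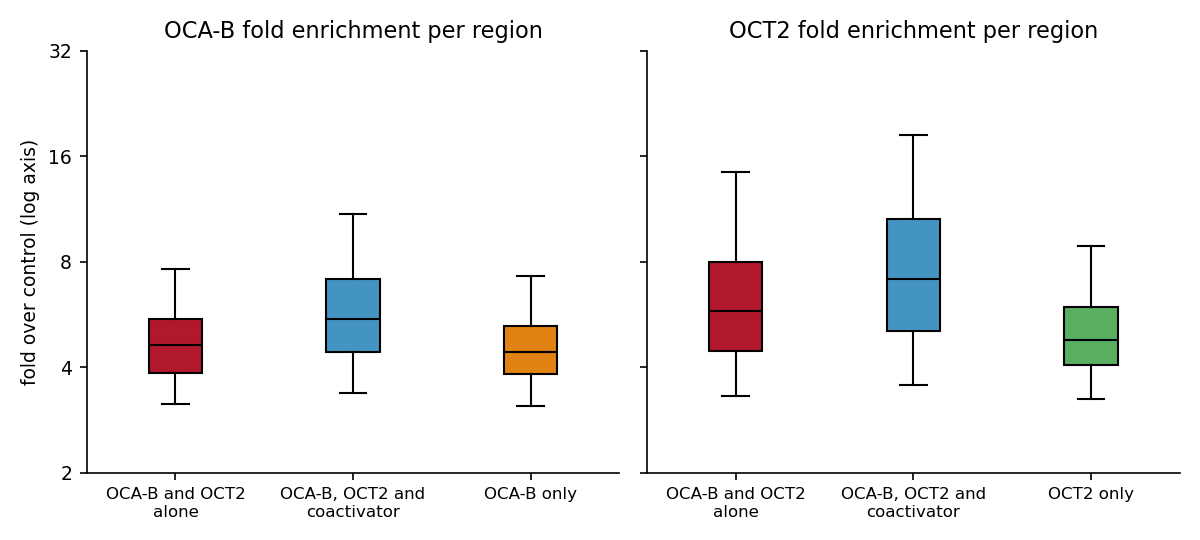
OCA-B (left) and OCT2 (right) fold over control per region on a log axis, for regions of the pair alone, regions with a coactivator and no OCT1, and regions of 1 factor. Boxes span the quartiles, the line is the median (4.62 and 5.77 for the pair alone) and whiskers reach percentiles 5 and 95; the pair alone lies below the pooled class with coactivators and above each factor by itself.

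The 2 folds went together only loosely. Spearman's rho was 0.25 over the 2177 regions and 0.62 over all 35858 regions with both factors, a description of points that share libraries and a common control. The highest OCA-B fold, 28.5, lay inside CYP1A1 (chromosome 15 from 74724007 to 74724377), where OCT2 had 4.29. The highest OCT2 fold, 46.8, lay inside ARHGEF37 (chromosome 5 from 149564729 to 149565226), where OCA-B had 4.79. These 2 genes were picked as extremes after their values were seen. OCT2 passed a fold of 10 in 321 regions (14.7%), OCA-B in 31 (1.42%) and both in 12. Such folds were more common over all 35858 regions with both factors, where this count was not taken. The upper quartile there was 10.1 for OCA-B and 14.8 for OCT2, against 5.49 and 7.96 for the pair alone.

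Binding without other factors became rarer as either factor grew stronger. Over all regions with both factors, 6.07% had no other list. In the weakest quintile by OCA-B fold the share was 14.1% (1009 regions), and in the next ones 10.3%, 4.43%, 1.19% and 0.349% (25 regions). By OCT2 fold it was 11.8%, 8.67%, 5.90%, 3.08% and 0.878%. OCA-B, OCT2 and the other factors were called against the same control, and its part in these shares was not tested.

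**Figure D2:**
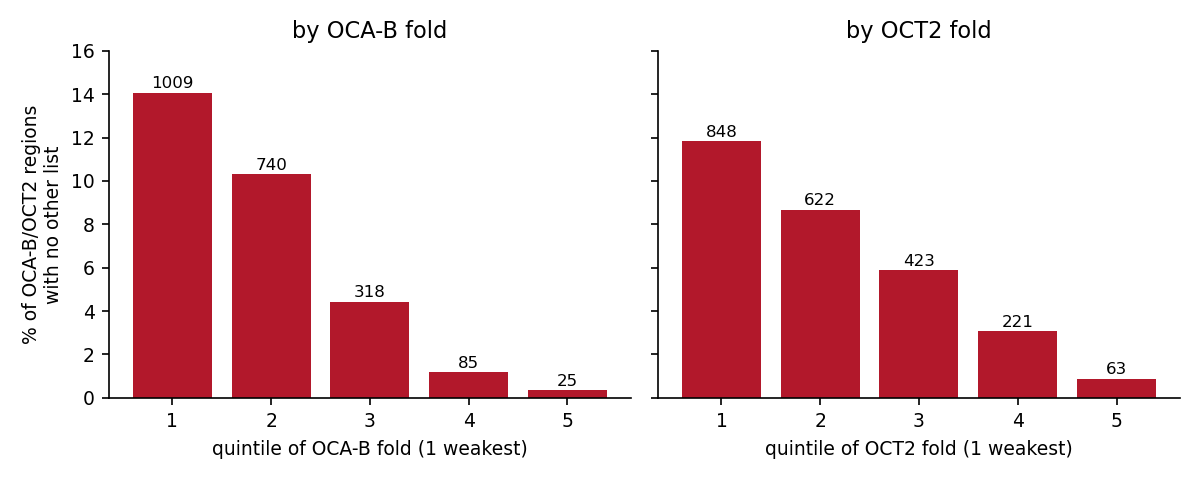
Percent of OCA-B/OCT2 regions that hold no other factor, by quintile of OCA-B fold (left) and OCT2 fold (right), with the number of such regions above each bar. The share is highest in the weakest quintile (14.1% and 11.8%) and lowest in the strongest (0.349% and 0.878%).

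EP300 was the most frequent single addition. Of the 35858 regions with both factors, 3149 (8.78%) held EP300 as the only addition, against 806 (2.25%) with OCT1 as the only one, 324 (0.904%) with MED1 and 173 (0.482%) with CREBBP. The median folds of the 3149 were 4.87 for OCA-B and 5.86 for OCT2, and those of the 806 with OCT1 were 6.55 for OCA-B and 9.94 for OCT2. With MED1 only they were 4.71 for OCA-B and 5.07 for OCT2, and with CREBBP only 4.64 for OCA-B and 5.05 for OCT2, so that OCT2 was lower with MED1 or CREBBP as the only addition than in the pair alone. Without EP300 in the rule 5326 regions would qualify, with the EP300 library the deepest of the 6.

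The threshold of the rule can be seen at its edges. The weakest regions kept had a −log10 q of 1.31 (nearest gene MRPL46) and 1.32 (several tied regions, among them those nearest to BMP3 and ZFAT) in the weaker of their peaks, and 66 (3.03%) were under 2. Just outside, the strongest coactivator peak had a −log10 q of only 1.32 near SLC19A2, 1.34 near TAFA5 and 1.38 near SLC29A3, and 48 regions were left out by coactivator peaks all under 2. A coactivator peak lay within 50 bp of 30 of the kept regions, the closest with 1 bp between.

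The strongest region by the smaller of both folds lay inside RITA1, whose product binds RBPJ and restrains Notch signalling. That region (chromosome 12 from 113190791 to 113191200, 1.35 kb from an end of the gene) had folds of 19.8 for OCA-B and 22.9 for OCT2, and summits 8 bp apart. A region inside DMRT1, a gene of testis determination (chromosome 9 from 967423 to 967815), had 17.8 for OCA-B and 28.0 for OCT2 with summits 5 bp apart. One 5.22 kb from NPHS1, which encodes nephrin of the kidney filter (chromosome 19 from 35819977 to 35820382), had 16.2 for OCA-B and 35.4 for OCT2. All 3 were between percentiles 93.5 and 98.3 of both lists, yet their nearest coactivator peaks were 2.80, 18.2 and 46.3 kb away.

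The next was inside TBC1D4, which encodes a Rab regulator of glucose transport (chromosome 13 from 75469141 to 75469544), with 13.6 for OCA-B and 16.8 for OCT2. The rest of the first 10 were nearest to ADARB2, TENT5B, BOD1L1, SULF2, DISC1 and RPL38, with OCA-B folds of 10.9 to 15.5 and OCT2 folds of 11.2 to 22.4. The SULF2 region was 199.1 kb from the gene and 0.804 kb from an EP300 peak. In each of the 10, the summits were at most 51 bp apart.

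Regions of the pair alone lay at gene boundaries less often than most other kinds. Of the 2177, 314 (14.4%) had their summits within 1 kb of where a gene, protein-coding or lncRNA, begins or ends, against 19.5% of all union regions, 19.4% of those with a coactivator, 34.7% of OCA-B only and 8.88% of OCT2 only regions. Among the 1717 with no peak of another factor within 1 kb it was 8.85%, so the share depended on regions beside other peaks. The other kinds were not filtered in this way. A further 1096 (50.3%) lay elsewhere inside genes and 767 (35.2%) between genes, against 53.6% and 27.0% with a coactivator. The boundary share of the pair alone stood below that of the class with coactivators in each quintile of OCT2 fold, at 19.6% against 29.2% in the weakest and 4.76% (3 of 63) against 8.44% in the strongest. At gene boundaries the median OCT2 fold of the pair alone was 5.05, against 5.94 between genes. OCA-B had 4.64 and 4.76 in these places.

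**Figure D3:**
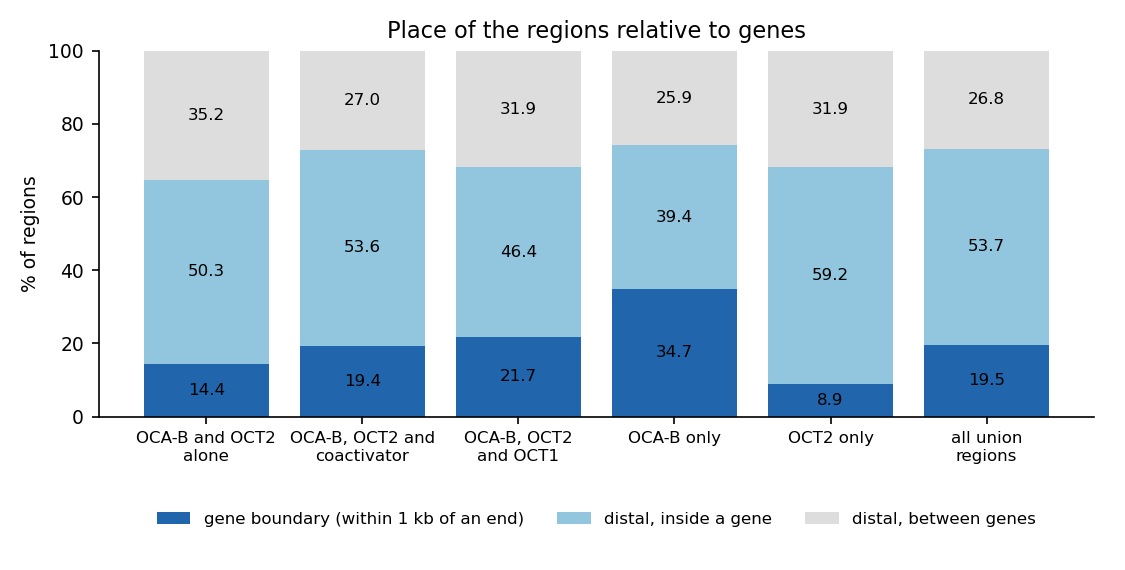
Percent of regions at gene boundaries (within 1 kb of a gene end), distal inside genes and distal between genes, for 6 kinds of region. The pair alone has 14.4% at boundaries, between OCT2 only (8.88%) and OCA-B only (34.7%). It has 8.85% where no other factor has a peak within 1 kb, which is not drawn. The other kinds were not filtered in that way.

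The regions were spread thinly over all chromosomes. Their share of the OCA-B/OCT2 regions was highest on chromosomes 4 (7.85%, 106 regions) and 8 (7.79%, 108) and lowest on 22 (4.29%, 39) and 14 (4.69%, 56). The median distance to the next region of the same kind was 301499 bp, and 123 (5.65%) had another within 10 kb. Within 1 kb there was a tRNA gene for 1 region, an snRNA gene for 1, a miRNA gene for 2, an snoRNA gene for 4 and an immunoglobulin V segment for 3. For tRNA genes this was 0.0459%, against 0.237% of all union regions, for miRNA genes 0.0919% against 0.530%, for snRNA genes 0.0459% against 0.0798%, for snoRNA genes 0.184% against 0.243% and for immunoglobulin V segments 0.138% against 0.135%. Each of these shares rests on 4 regions or fewer.

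Coactivator peaks were near many of these regions without touching them. The median distance to the nearest MED1, CREBBP or EP300 peak was 7972 bp (quartiles 1762 to 29168), against 2037 bp for OCA-B only and 6967 bp for OCT2 only regions. Within 10 kb lay 1197 (55.0%), against 71.7% of OCA-B only and 56.6% of OCT2 only regions, or 59.9% of both together. EP300 was the nearest, alone or tied, in 74.9%, against 68.6% of OCA-B only and 79.8% of OCT2 only regions. The median distances were 8976 bp to EP300, 19876 bp to CREBBP, 22492 bp to MED1 and 25801 bp to OCT1. For OCT2 only regions they were 7822, 15780, 18470 and 25295 bp in the same order. For OCA-B only regions they were 3459, 7788, 8522.5 and 8168 bp. The EP300 list is also the longest, and distances were not adjusted for list length.

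**Figure D4:**
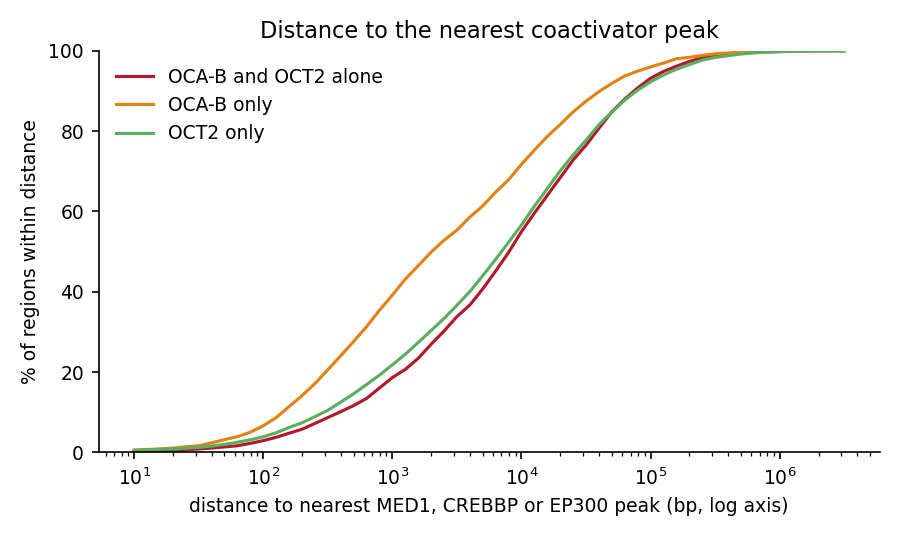
Cumulative percent of regions by distance in bp (log axis) to the nearest MED1, CREBBP or EP300 peak, for the pair alone, OCA-B only and OCT2 only. At 10 kb the curves stand at 55.0%, 71.7% and 56.6%, and the curve of the pair alone runs close to that of OCT2 only.

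Regions within 1 kb of a coactivator peak were more often at gene ends than those farther off. Of the 406 within 1 kb, 31.3% lay at gene boundaries, of the 791 from 1 to 10 kb away 12.3%, of the 831 from 10 to 100 kb away 8.90% and of the 149 beyond 10.7%. The median OCT2 folds were 5.02, 5.82, 5.94 and 6.57 in the same order. The 149 regions over 100 kb from any coactivator peak had a median OCA-B fold of 4.77. The strongest of these was inside PDLIM5 (chromosome 4 from 94595861 to 94596195), with 10.5 for OCA-B, 27.4 for OCT2 and 126.6 kb to the nearest coactivator peak. The next was inside RYR2, a calcium channel gene of the heart (chromosome 1 from 237789632 to 237789958), with 9.55 for OCA-B and 10.5 for OCT2 and 993.5 kb to the nearest. Others were nearest to PRKX, MINAR2 and ARNT2, with 203.4 to 268.3 kb to the nearest. These 5 stood between percentiles 73.6 and 83.7 of the OCA-B list and were picked after their values were seen.

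Of the 2177 regions, 1891 (86.9%) were within 100 kb of an end of a protein-coding gene and were given to the gene with the nearest end. They fell on 1737 of 19974 genes (8.7%), 1597 of which received 1 region. ZCCHC7, a cofactor of nuclear RNA decay that lies beside PAX5, received the most with 4 of its 29 OCA-B/OCT2 regions. Those 4 had OCA-B folds of 3.42 to 4.30 and OCT2 folds of 3.58 to 7.60, and a coactivator peak lay within 25 to 3795 bp of each. Next came 12 genes with 3 regions, ADGRE5, CCNG2, EDC3, EPS15L1, LONRF1, RGCC, RPL7L1, TACC1, TRA2B, TRIM2, WRNIP1 and ZNF195, and then by symbol ADAMTS8 and AGPS with 2.

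At EDC3, an mRNA decapping gene, all 3 of its OCA-B/OCT2 regions were of the pair alone. Their OCA-B folds were 9.10, 5.78 and 5.14 and their OCT2 folds 3.30, 3.27 and 7.99, all within 4.80 kb of one gene end, with EP300 2.99 to 7.72 kb off. At ADAMTS8, a metalloprotease gene, both of its regions were of the pair alone and over 115 kb from a coactivator peak. At TRIM2, which encodes a ubiquitin ligase, 3 of 5 regions were, the strongest with 6.56 for OCA-B and 13.9 for OCT2. At ADGRE5, the gene of the leukocyte receptor CD97, the 3 of 11 included an OCA-B fold of 16.2 beside an OCT2 fold of 5.29.

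Genes of the germinal centre and of B cell receptor signalling had many OCA-B/OCT2 regions, few of them without other factors. Of 245 such regions given to 24 germinal centre genes, 6 (2.45%) held the pair alone, against 5.96% of the 31737 regions given to all protein-coding genes. For 25 B cell identity genes it was 3 of 135 (2.22%), for 20 receptor signalling genes 2 of 185 (1.08%), for 20 plasma cell genes 3 of 102 (2.94%), for 18 CD40 and NF-kB genes 1 of 66 and for 13 class II antigen presentation genes none of 25. For 20 cell cycle genes it was 5 of 55 (9.09%) and for 15 T cell genes 2 of 24 (8.33%). Ribosomal protein genes had 1 of 54 (1.85%), so a low share was not particular to the B cell lists. The erythroid and liver lists had none of 5 each, the myeloid list 1 of 7 and the neuron list 1 of 8. Counted by gene, the share with at least 1 was 20.8% of germinal centre genes (5 of 24), 12% of B cell identity, 10% of receptor signalling, 15% of plasma cell, 5.56% of CD40 and NF-kB, 0% of class II, 25% of cell cycle (5 of 20), 4.17% of ribosomal protein and 13.3% of T cell genes, against 8.7% of all protein-coding genes. The germinal centre count was 0 with OCA-B and OCT2 peaks of −log10 q of at least 5 only, 3 with all lists held to that or within 50 kb, and 1 with shortened lists. The median per gene was 0 in every list.

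**Figure D5:**
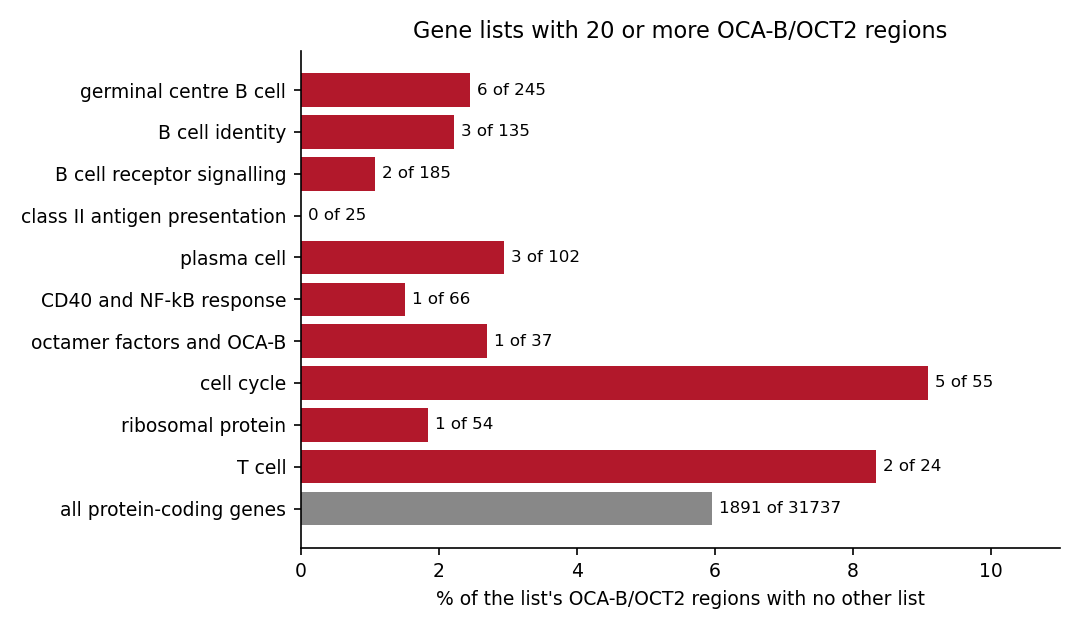
Percent of the OCA-B/OCT2 regions given to each gene list that hold no other factor, with the counts beside each bar, for lists with 20 or more such regions and, in grey, all protein-coding genes (5.96%). The B cell lists lie between 0% and 2.94% and rest on 6 regions or fewer each, and ribosomal protein genes (1.85%) rest on 1. The cell cycle (9.09%) and T cell (8.33%) lists rest on 5 and 2 regions.

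Of the 6 germinal centre regions, 1, at P2RY8, stood above the median of the OCA-B list. Most regions of the pair alone did not, as 77.2% of all 2177 were at or below it. At P2RY8, a receptor that confines B cells to the germinal centre, 2 of 18 regions were of the pair alone, with 6.42 and 3.71 for OCA-B and 4.33 and 4.001 for OCT2. P2RY8 lies in the pseudoautosomal region shared by X and Y, so placement of its reads is uncertain. FOXO1, a transcription factor of the dark zone, had 1 of 25, with 4.26 for OCA-B and 7.76 for OCT2, 5.96 kb outside the gene. BACH2, a repressor of plasma cell fate, had 1 of 21 (4.47 for OCA-B, 4.46 for OCT2). MME, the CD10 gene, had 1 of 6 (3.005 for OCA-B, 4.84 for OCT2), 69.2 kb outside the gene. MYBL1, which the naming rule does not reach, also had 1 of 6 (3.84 for OCA-B, 5.55 for OCT2). BCL6, S1PR2 and POU2AF1 had none.

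In the B cell receptor list SYK, the kinase that starts the cascade, had 1 of 20 (6.64 for OCA-B, 5.51 for OCT2) and the exchange factor gene VAV1 1 of 8 (7.70 for OCA-B, 6.11 for OCT2). CD37, FCRL1 and SPI1 had 1 each among B cell identity genes, CREB3L2, HSP90B1 and SEC11C among plasma cell genes and TNFAIP3, a brake of NF-kB, among CD40 and NF-kB genes. The CD37 region lay inside the neighbouring TEAD2. The SYK region was 42.2 kb outside its gene, that of SEC11C 69.3 kb and that of TNFAIP3 72.0 kb. Of these 9 regions those of SYK and VAV1 stood above the median of the OCA-B list. Of all 2177 regions of the pair alone, 77.2% were at or below it, so these 9 were not unusual.

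Cell cycle genes had 1 region each at AURKA, CDK1, MCM3, MKI67 and TOP2A. At AURKA, a mitotic kinase gene, the folds were 3.805 for OCA-B and 5.48 for OCT2, and a CREBBP peak lay 70 bp away. TOP2A, the topoisomerase gene, had 4.49 for OCA-B and 10.7 for OCT2, 5.12 kb from an end. MKI67, the proliferation marker gene, had 5.49 for OCA-B and 6.94 for OCT2. TOP2A stands outside the naming rule and is given to complete the 5. RPL23 was the ribosomal protein gene with 1 region, 1.11 kb from an end (4.18 for OCA-B, 3.98 for OCT2).

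Of 37 OCA-B/OCT2 regions given to 6 genes of octamer factors and the OCA-B family, 1 (2.70%) was of the pair alone. It was the only OCA-B/OCT2 region of POU2AF3, a paralogue of the OCA-B gene. It lay inside the gene (chromosome 11 from 111303460 to 111303992) with 6.71 for OCA-B and 16.4 for OCT2, and EP300 was 2.29 kb away. Of the lists of other tissues, CD28 (3.52 for OCA-B, 15.9 for OCT2), IL7R (4.39 for OCA-B, 7.15 for OCT2), NEUROD1 (4.24 for OCA-B, 13.7 for OCT2) and ELANE (7.16 for OCA-B, 8.68 for OCT2) had 1 each. At ELANE, the neutrophil elastase gene, it was the only OCA-B/OCT2 region, 0.949 kb from an end. The NEUROD1 region lay 62.5 kb outside the gene.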

How the data were processed

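The ChIP-seq peak lists of 6 factors were used, 1 library each. MACS2 2.1.1.20160309, SAMtools 1.3.1, Bowtie2 2.3.2.2 and CASAVA 1.8.2 are listed in the submitters' processing notes, as is build hg38. Per the file headers, MACS2 called narrow peaks of each library against the same control (37517450 tags kept), with 51 bp tags, 1 tag kept per position and a q threshold of 0.05. The deposited pileup signal, fold enrichment ratio and −log10 p and q values are the authors'. Medians, ranks and percentiles were taken within a list, but the smaller of the OCA-B and OCT2 folds, the weaker q, the strongest coactivator q and the fold mark of 10 set values of different libraries side by side, which differ in depth. Duplicate tags made up 0.08 to 0.2 of the OCA-B, OCT2, OCT1 and EP300 tags and 0 of those of CREBBP and MED1, per the file headers. Whether duplicates had been removed from the CREBBP and MED1 reads before peak calling is not given in the sources used here, so that 0 may not be the libraries' own duplicate share, and tag numbers before filtering may not compare. The deposited pileup values were all whole, though the file headers speak of a depth-scaled signal.

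Peaks were joined with Python 3.11.15 and pandas 2.3.3, and in a region the strongest peak of a factor by fold was used. Joining, distances and motif search were checked on simulated intervals. Gene positions and promoter windows came from RefSeq GRCh38.p14, the same assembly as hg38. Intervals cover counting error only, and neighbouring windows and regions are not independent. The members and lists were chosen with earlier results of these data known.

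Named by rule were the genes nearest to the 10 regions with the highest smaller fold, the 15 genes with most regions and the first 4 of each list with a region. Also named were the 12 promoters with the highest smaller fold that are not on chromosome 8. Stricter q, distance, summit, list length, gene boundary, gene distance and mismatch settings were alternatives. The motif count under summits, planned if a genome was given, was replaced by promoter windows.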

Additional observations from a re-analysis of the deposited data

Results flagged for a closer look

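On sequences outside chromosomes 1 to 22 and X, which the report does not use, 72 regions had OCA-B and OCT2 peaks and no other list, of 1267 with both factors there. Of the 72, 67 were on alternate contigs, whose sequence is near that of the main chromosomes. Their median folds were 5.25 for OCA-B and 5.47 for OCT2.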

How the results depend on the processing

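Of 48 alternatives, 15 kept a value within its 95% interval (Wilson for shares, 2.88 to 14.7 for the octamer share; a count within 1.5 times) and 33 did not; the cause was not tested except where the setting itself selects. The number of regions was 908 with OCA-B and OCT2 peaks of −log10 q of at least 5 only, 646 with each list shortened to 23571 peaks, and 5326 without EP300 in the rule; it was 1658 with all lists at −log10 q of at least 5. Without OCT1, MED1 or CREBBP in the rule it was 2983, 2501 and 2350; leaving a list out of the rule was added after seeing the data.

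For settings in the order OCA-B and OCT2 strict, all lists strict, and lists shortened, the median OCA-B fold was 5.50, 5.47 and 7.70, the median OCT2 fold 6.82, 6.83 and 12.8, the summit distance 28, 29 and 22 bp, and the share within 10 kb of a coactivator 51.4%, 51.8% and 43.5%. The gene boundary share was 12.4% and 17.1% in the first 2. The octamer share was 2.78% (of 36 windows), 1.96% (of 102) and 18.9% (of 37), so it rests on few windows. Germinal centre genes with a region numbered 0, 3 and 1, and 3 within 50 kb. With no other peak within 1 kb, the OCT2 fold was 5.95, the boundary share 8.85% and the share within 10 kb 44.1%. With summits within 100 bp they were 5.91, 13.4% and 52.7%, and the summit distance 29 bp. The boundary share was 7.67% at 500 bp and 23.3% at 2 kb, and the octamer share with 1 mismatch 28.0%. The 50 bp motif window was not run, as it needs a genome. No paired analysis was possible because each factor had 1 library. Depth limits what absence of a peak means, and how far was not compared between factors.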

Other observations

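The control term behind each peak, taken as (pileup + 1) / fold, had a lowest value of 2.09 in the OCA-B and 2.19 in the OCT2 list, the values that tag number and fragment length in the file headers give for the genome background plus 1. Its median for OCA-B was 3.13 in regions of OCA-B and OCT2 alone, 3.66 with a coactivator and no OCT1, 2.60 with OCT1 and no coactivator and 2.91 for OCA-B only. For OCT2 it was 3.36, 3.95 and 2.77 in the first 3 of these and 2.77 for OCT2 only. The local control level was thus lower where the pair stood alone than where coactivators had joined it, and lower again with OCT1 alone. The part of the control level in the calls was not tested.

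The region closest to a region of the pair alone, of any other kind, was a median of 5193 bp away. It held a coactivator in 68.4% of cases, EP300 in 61.1%, a single list in 48.6% and all 6 lists in 7.85%. Such shares were not taken for other kinds of region, so these do not show a trait of the pair alone. The EP300 list, with 82569 peaks used, is the longest of the 6.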
